A study of Mus musculus with 19 samples.

Results

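The regions described here were stretches of chromatin that were open in adult lymphoid-primed multipotent progenitors (LMPP) and in none of the other 3 cell populations of the study. The authors deposited 1 list of ATAC-seq peaks per population. Peaks of the 4 lists that shared at least 1 bp were merged into 77133 regions, and the 8114 regions that held a peak of the adult LMPP list alone were kept. Each of the 8114 was a single peak, and together they made up 16.0% of the 50579 distinct peaks of that list. The regions were chosen by the presence or absence of a peak in each list, so their peak values are given as a description, without a test. RNA-seq of the same populations did not enter the choice.

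The study compared 4 populations of C57BL/6 mouse blood progenitors, all wild type as far as the labels say and with no treatment named. Adult LMPP came from bone marrow of mice aged 12 weeks and fetal LMPP from fetal liver at embryonic stage E14.5, both sorted by surface stain as c-Kit+ Sca-1+ CD48+ CD150- Flt3+ cells that lacked the mature markers CD3, Gr1, B220 and Ter119. Adult and fetal hematopoietic stem cells (HSC) came from the same tissues and ages as c-Kit+ Sca-1+ CD48- CD150+ Flt3- cells. The adult gates also left out CD11b+ cells, and the labels name no such step for the fetal gates. RNA-seq covered 11 libraries (3 of adult LMPP, 3 of fetal LMPP, 3 of adult HSC and 2 of fetal HSC), which the design text calls biological replicates, and ATAC-seq covered 8 libraries, 2 per population. The number of animals behind each library was not stated in the labels.

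LMPP are progenitors that have given up most of the potential to make red cells and platelets and keep the potential to make lymphocytes and many myeloid cells. They already transcribe some lymphoid and myeloid genes at a low level while stem cell genes decline. In such cells, most chromatin that differs between cell types lies away from promoters, in enhancers, where factors such as PU.1 (an ETS family factor), RUNX1 and C/EBP proteins bind. A region that opens is not always matched by a change in the RNA of a neighbouring gene.

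The sequence of the regions could be read where they covered a promoter. Of 32851 promoter windows of RefSeq (GRCm38.p6, the build that mm10 names, each with 250 bases before and 50 after a gene start), 235 windows of 214 genes shared bases with 212 of the regions, 2.61% of them, and 89 windows lay wholly inside one. The windows of 6 genes are shown because their RNA differed between the populations described below and because they belong to lymphoid or myeloid cells. Ccl3, Kmo and Rag2 are among the genes named by rule, and Btla, Cx3cr1 and Nkg7 were chosen after their values were seen. Each line gives the part of the window inside the region, 5′ to 3′ on the gene's strand. Capitals mark matches, on either strand, to the ETS core AGGAAG, the RUNX motif TGTGGT or the C/EBP motif TTGCNNAA.
Kmo: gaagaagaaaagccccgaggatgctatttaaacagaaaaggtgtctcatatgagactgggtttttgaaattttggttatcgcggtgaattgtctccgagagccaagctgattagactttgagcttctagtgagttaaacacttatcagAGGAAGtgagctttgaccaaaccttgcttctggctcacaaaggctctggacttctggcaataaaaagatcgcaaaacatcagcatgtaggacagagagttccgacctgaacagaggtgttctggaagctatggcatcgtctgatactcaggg
Btla: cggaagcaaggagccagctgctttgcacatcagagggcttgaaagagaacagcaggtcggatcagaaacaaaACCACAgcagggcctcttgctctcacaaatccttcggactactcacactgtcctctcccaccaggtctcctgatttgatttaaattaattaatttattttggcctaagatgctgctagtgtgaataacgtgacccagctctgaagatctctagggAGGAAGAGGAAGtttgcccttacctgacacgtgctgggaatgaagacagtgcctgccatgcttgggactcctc
Nkg7: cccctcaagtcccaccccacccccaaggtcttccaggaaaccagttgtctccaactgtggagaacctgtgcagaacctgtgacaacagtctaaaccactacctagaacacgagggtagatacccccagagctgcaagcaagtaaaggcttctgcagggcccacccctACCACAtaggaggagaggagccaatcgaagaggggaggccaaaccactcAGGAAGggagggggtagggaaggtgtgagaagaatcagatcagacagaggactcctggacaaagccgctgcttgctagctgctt
Ccl3: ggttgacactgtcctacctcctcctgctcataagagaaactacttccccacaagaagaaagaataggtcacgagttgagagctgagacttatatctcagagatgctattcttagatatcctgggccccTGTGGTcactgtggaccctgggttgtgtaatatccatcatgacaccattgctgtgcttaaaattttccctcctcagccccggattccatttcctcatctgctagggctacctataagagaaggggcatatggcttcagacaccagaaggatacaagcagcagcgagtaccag
Cx3cr1: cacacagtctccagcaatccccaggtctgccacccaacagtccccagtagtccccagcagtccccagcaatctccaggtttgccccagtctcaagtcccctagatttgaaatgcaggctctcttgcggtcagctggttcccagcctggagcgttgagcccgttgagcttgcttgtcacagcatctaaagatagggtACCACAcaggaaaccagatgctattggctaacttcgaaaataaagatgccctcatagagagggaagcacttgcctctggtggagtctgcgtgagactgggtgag
Rag2: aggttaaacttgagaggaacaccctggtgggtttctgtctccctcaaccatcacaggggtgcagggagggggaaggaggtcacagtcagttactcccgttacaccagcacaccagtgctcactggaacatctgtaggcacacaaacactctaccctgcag
The Kmo window (chr1:175631943-175632242, plus strand) held 1 ETS core, which was also a match to the longer PU.1 motif AGGAAGT. Kmo encodes kynurenine 3-monooxygenase, an enzyme of tryptophan breakdown. The Btla window (chr16:45224087-45224386, plus strand) held 2 ETS cores next to each other, the second again a PU.1 match, and 1 RUNX match upstream of them. Btla is an inhibitory receptor of lymphocytes. The Nkg7 window (chr7:43436888-43437187, plus strand) held 1 ETS core and 1 RUNX match, and Nkg7 is a granule protein of cytotoxic lymphocytes. The Ccl3 window (chr11:83649329-83649628, minus strand) held 1 RUNX match and the Cx3cr1 window (chr9:120068247-120068546, minus strand) 1 RUNX match. Ccl3 is a chemokine and Cx3cr1 the receptor of another chemokine, fractalkine. The region at Rag2, which encodes a subunit of the recombinase that assembles antigen receptor genes, covered 160 bases of the window (chr2:101624602-101624761, plus strand), and these held none of the 3 motifs. That says only that these letters are not in those bases.

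Across the 235 windows, the motifs of PU.1 and other ETS factors, RUNX and C/EBP were present at higher shares than in promoters at large, and the other motifs searched were at similar or lower shares. No test was made of these shares. The PU.1 motif AGGAAGT stood in 38 of 235 windows (16.2%), against 9.35% of all 32851 promoters. It stood in 8.74% of promoters under regions unique to fetal LMPP, 7.75% under regions unique to adult HSC, 8.61% under regions unique to fetal HSC and 8.76% under regions open in all 4 lists. The ETS core AGGAAG, which lies within the PU.1 motif and so includes every PU.1 match, stood in 48.9% of the windows, against 35.4% of all promoters and 44.7% of those under regions unique to fetal LMPP. The RUNX motif TGTGGT stood in 25.5%, against 16.8%, and the C/EBP motif TTGCNNAA in 17.9%, against 10.8%. The GATA motif AGATAA, bound by factors of stem, red and megakaryocyte cells, stood in 11.1% of the windows, against 11.2% of all promoters and 13.6% of promoters under regions unique to adult HSC. The motif GGGCGG of SP and KLF factors stood in 36.2%, against 35.7% of all promoters and 67.6% of those under regions open in all 4 lists, and CCAAT in 23.4%, against 37.4% of all promoters. The E-box CAGCTG (17.9%, against 16.3%), the AP-1 motif TGANTCA (4.68%, against 7.81%) and TATAAA (9.79%, against 13.6%) were also searched, all on both strands. The GC content of the 235 windows was 55.6%, against 53.8% over all promoters and 62.0% under regions open in all 4 lists, and its part in these shares was not tested. The shares describe the 2.61% of the regions that touch a promoter window. The sequence of the other regions was not analysed here.

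**Figure D1:**
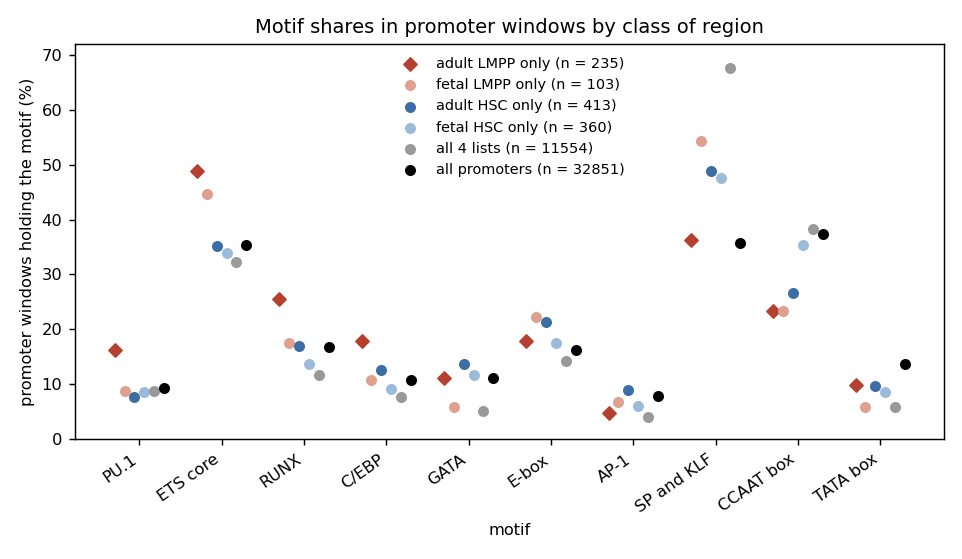
Share of promoter windows (y axis, %) that hold each of 10 motifs (x axis), for windows under regions unique to each population, under regions open in all 4 lists, and for all promoters of the table. Diamonds are windows under regions unique to adult LMPP, which lie above the other classes for PU.1 (16.2%), the ETS core (48.9%), RUNX (25.5%) and C/EBP (17.9%).

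The regions were weak members of their own list. The signal value, the peak caller's own measure of enrichment, had a median of 5.56 over the 8114 regions (quartiles 4.6 and 7.1, highest 22.1), against 10.7 for adult LMPP peaks in regions open in all 4 lists and 8.11 over the whole list. Adult LMPP peaks shared with fetal LMPP alone had a median of 7.91. Of the 8114, 1236 (15.2%) lay above the median of the list. With the list split by signal into 10 bins of equal size, 39.8% of peaks were unique in the lowest bin and 0.869% in the highest. The −log10 q value had a median of 17.0 (range 0.133 to 161). The lists also differed in length: adult LMPP held 50579 peaks, fetal LMPP 37156, adult HSC 53068 and fetal HSC 48286, so a peak that one list missed for lack of depth would count here as unique, and this was not tested. With each list held to its 37156 peaks of lowest q, 4445 regions were unique to adult LMPP, of which 3101 were among the 8114 (38.2% of them), and the other lists then had 4701 (fetal LMPP), 4869 (adult HSC) and 4356 (fetal HSC) unique regions.

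**Figure D2:**
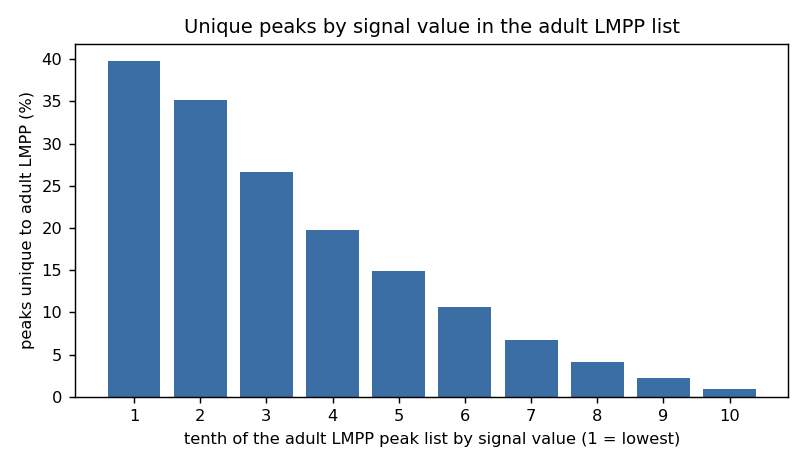
Share of adult LMPP peaks that were unique to adult LMPP (y axis, %) in 10 equal bins of the list by signal value (x axis, lowest at the left). The share is 39.8% in the lowest bin and 0.869% in the highest.

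Few regions sat at the edge of the rule. A peak of another list lay within 100 bp of 148 regions (1.82%), which had a median signal of 3.92, and 8 adult LMPP peaks were left out because of an overlap of at most 10 bp, with a median signal of 2.98. The median gap to the nearest peak of another list was 5.64 kb, and 2688 regions (33.1%) had none within 10 kb. Those 2688 had a median signal of 6.03.

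The regions lay mostly far from gene starts. Of the 8114, 315 (3.88%) had their centre within 1 kb of a gene start of the deposited gene table, against 42.1% of the regions open in all 4 lists and 18% of all merged regions. For regions shared by adult and fetal LMPP alone the value was 3.66%, and for those unique to fetal LMPP, adult HSC and fetal HSC it was 5.81%, 5.79% and 5.78%. The nearest gene start within 100 kb lay at a median of 19.4 kb, 4053 regions were inside the span of a gene, and 1453 (17.9%) had no gene start within 100 kb. The other 6661 were assigned to 4870 genes by the nearest gene start. The regions were 150 to 1783 bp wide, with a median of 398 bp. They took 14.9% (chromosome 16) to 18.4% (chromosomes 1 and 15) of the adult LMPP peaks of a chromosome, with 2 of 19 on the Y chromosome.

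**Figure D3:**
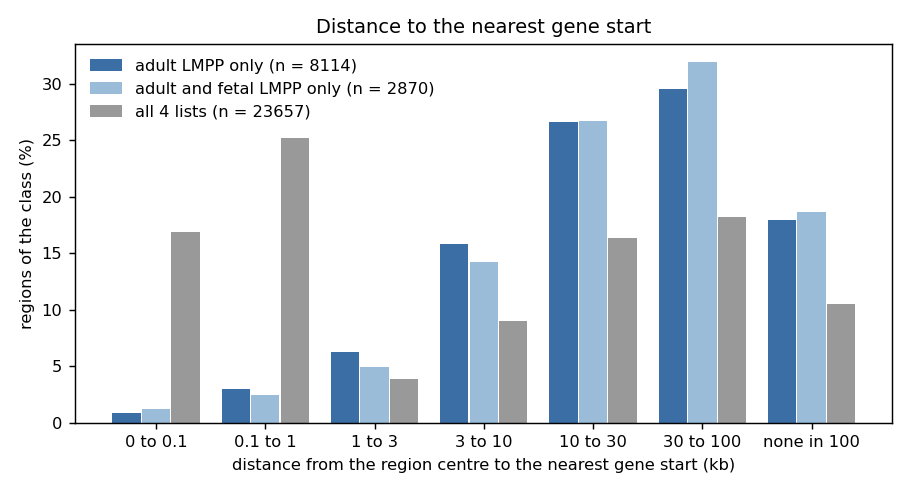
Distance from the region centre to the nearest gene start (x axis, kb) for regions unique to adult LMPP, regions shared by adult and fetal LMPP alone and regions open in all 4 lists, as a share of each class (y axis, %). Within 1 kb lie 3.88% of the regions unique to adult LMPP and 42.1% of those open in all 4 lists.

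Most regions stood alone. With gaps of up to 20 kb joined, 5767 (71.1%) had no other member beside them and 2347 fell into 1039 groups, of which 45 held at least 4. The largest groups held 6 regions: one spans chr9:83532900-83573219 at Sh3bgrl2, and the other chr15:25873505-25903292 at Retreg1 and Mir7212. Groups of 5 lay, among others, at Ksr1, at Abcc4, between Pgs1 and Socs3, at Coq2 and Plac8, and at Cd300a and Cd300lb, which encode receptors of myeloid cells (chr11:114879686-114931646).

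The 8 genes with the most regions, 6 or 7 each, were Kctd1, Tapt1, Ksr1, Mir28c, Plxnc1, Vav3, Sh3bgrl2 and Foxo1. Rftn1 and Trio followed with 5 each, a number that S1pr1 and other genes shared. The RNA of these genes went in different directions. Tapt1 had 7 of its 20 open regions in adult LMPP alone and averaged 222 CPM in adult LMPP, against 91 CPM in adult HSC (log2 difference 1.28 ± 0.20 SE, edgeR adjusted p = 0.0019). Vav3 averaged 99.4 CPM in adult LMPP and 41.7 CPM in adult HSC (log2 difference 1.26 ± 0.36, edgeR adjusted p = 0.036), a call that was lost without adult LMPP 1 (0.14), adult LMPP 2 (0.09), adult HSC 1 (0.071) or any 1 fetal library (0.05 to 0.059), and in a fit of the compared groups alone (0.12). Plxnc1, a semaphorin receptor with 6 regions, fell to 24.7 CPM in adult LMPP, against 218 CPM in adult HSC (log2 difference −3.14 ± 0.54, edgeR adjusted p = 0.0031). Foxo1, a factor of stem cell quiescence and B lymphocyte development, also had 6 regions. Its level was 17.7 CPM in adult LMPP and 33.6 CPM in adult HSC (log2 difference −0.92 ± 0.23, edgeR adjusted p = 0.02), which rose to an adjusted p of 0.055 to 0.076 without adult LMPP 1, adult LMPP 3, adult HSC 1 or adult HSC 2. Mir28c, a microRNA gene, was listed at 0 in all 11 libraries.

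The 10 regions of highest signal lay at least 21.1 kb from a gene start, and their nearest genes ranged from silent to well expressed. The highest signal, 22.1, was at chr15:48735496-48735865, inside Csmd3 and 56.3 kb from its start. Csmd3 had 0 counts in all 11 libraries, which allows up to 0.0498 to 0.152 CPM per library. The next were a region 30.0 kb upstream of Tox3 (chr8:90378030-90378514, signal 21.8) and one 99.4 kb upstream of Tab2 (chr10:8055291-8055677, signal 21.4). Tox3 averaged 0.696 CPM in adult LMPP and 0.374 CPM in fetal LMPP, with no call. Tab2, an adaptor of inflammatory signalling, had 22.7, 14.1 and 14.8 CPM in adult LMPP, against 39.0, 36.7 and 36.5 CPM in fetal LMPP, and fell (log2 difference −1.12 ± 0.21, edgeR adjusted p = 0.006). Pappa2 was at 0 in adult LMPP, while Kif5b averaged 129 CPM, Frmd4a 26.9 CPM and Ext1 9.96 CPM there. Of the 10 strongest regions 2 had no gene start within 100 kb.

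RNA was measured in 14720 genes that passed the filter on low counts, of which 3344 had at least 1 of the regions assigned. Library totals ran from 19.8 to 64.78 M counts. Levels are counts scaled to library size with TMM factors (CPM), differences are log2 values of adult LMPP minus the other group with their SE, and calls are at an edgeR adjusted p under 0.05. Flt3 and Slamf1, which tell the gates apart, went with the labels. Flt3 averaged 974 ± 80.7 CPM in adult LMPP and 13.4 ± 3.61 CPM in adult HSC (SD, n = 3 each), and Slamf1, which encodes CD150, averaged 0.481 ± 0.476 CPM in adult LMPP and 70.9 ± 2.69 CPM in adult HSC. Libraries adult LMPP 3, fetal LMPP 1 and adult HSC 3 deviated from their group means together (r over genes 0.229 to 0.407), so counts are also given without them. Kit, which every gate selects, was at 158 CPM in adult LMPP 3, against 551 and 592 CPM in the other adult LMPP libraries, and at 195 CPM in adult HSC 3, against 1140 CPM in both other adult HSC libraries. In fetal LMPP 1 it was at 280 CPM, against 474 and 526 CPM in the other fetal LMPP libraries. In bulk RNA, fewer cells of a type and less RNA per cell cannot be told apart.

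Genes near the regions were called higher in adult LMPP than in fetal LMPP more often than genes at large, and lower about as often or less. Of the 3344, 376 (11.2%) rose and 215 (6.43%) fell, against 8.29% and 7.08% of all 14720 genes. Near regions unique to fetal LMPP 9.0% rose and 8.81% fell, and near regions open in all 4 lists 7.79% rose and 7.12% fell. These shares carry no test of their own. With the 3 deviating libraries left out, 676 (20.6%) rose and 456 (13.9%) fell, against 15.3% and 15.2% of all genes.

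Against adult HSC, genes near the regions changed in both directions. Of the 3344, 355 (10.6%) rose and 345 (10.3%) fell, against 7.76% and 9.33% of all genes. Near regions unique to adult HSC, by contrast, 7.92% rose and 14.8% fell. With the replicate number as a block in the 6 adult libraries the counts near the regions unique to adult LMPP were 608 (19.9%) and 585 (19.1%), against 15.2% and 16.7% of all genes in that fit, and without the 3 libraries that stand apart they were 578 (17.6%) and 592 (18%), against 14.0% and 15.9%. Against fetal HSC, 355 genes (10.6%) rose and 284 (8.49%) fell, against 6.08% and 7.95% of all genes. Without the same 3 libraries those counts were 622 (18.9%) and 539 (16.4%), against 12.4% and 15.3% of all genes.

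The share of genes that rose was graded by distance in all 3 comparisons. Among the 212 tested genes with a region within 1 kb of the start, 28 (13.2%) rose and 12 (5.66%) fell against fetal LMPP, 37 (17.5%) rose and 25 (11.8%) fell against adult HSC, and 44 (20.8%) rose and 14 (6.6%) fell against fetal HSC. At 50 to 100 kb the shares that rose were 7.94%, 7.44% and 7.94%, close to or below those of all genes in the first and second comparison. The 3 comparisons share the adult LMPP libraries, so they are not independent. Regions unique to adult HSC showed the mirror image against adult HSC, with 6.53% higher and 23% lower in adult LMPP within 1 kb, and regions unique to fetal HSC did so against fetal HSC, with 3.08% higher and 23.6% lower. Regions unique to fetal LMPP did not do so within 1 kb against fetal LMPP, with 9.41% higher and 8.24% lower in adult LMPP among 85 tested genes. At 1 to 10 kb 8.55% of 269 genes were higher and 12.3% lower, against 8.29% and 7.08% of all genes. At 10 to 50 kb the shares were 9.14% and 7.65%. Against fetal LMPP, genes with an adult HSC region within 1 kb also rose in 16.2% of cases, so a higher share in the adult cells was not particular to the regions of adult LMPP.

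**Figure D4:**
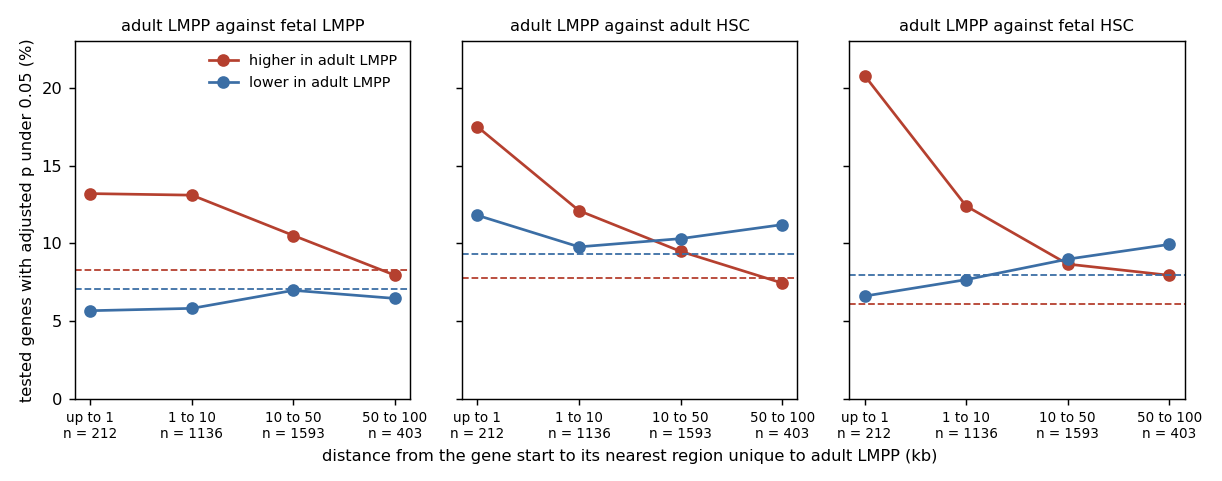
Share of tested genes called higher (red) or lower (blue) in adult LMPP (y axis, %) by distance from the gene start to its nearest region unique to adult LMPP (x axis, kb, with the number of genes), in 3 comparisons. Dashed lines are the shares over all 14720 tested genes, and the share higher at up to 1 kb is 13.2%, 17.5% and 20.8% from left to right.

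The share that rose also went up with the number of regions and not with their signal. Against fetal LMPP, 10.6% of genes with 1 region rose, 12.1% with 2, 12.9% with 3 and 18.8% of the 80 tested genes with 4 or more, while 6.31% to 7.5% fell. Against adult HSC the shares that rose were 9.82%, 10.6%, 16.7% and 16 of 80, and those that fell were 10.2%, 9.77%, 12.4% and 15%. Genes whose strongest region lay above the median signal of the list rose in 9.29% and fell in 8.01% of cases against fetal LMPP, against 11.6% and 6.12% of genes with weaker regions alone. Of 108 tested genes whose promoter window touched a region, 17 (15.7%) rose and 3 (2.78%) fell against fetal LMPP, 19 (17.6%) rose and 11 (10.2%) fell against adult HSC, and 27 (25%) rose and 4 (3.7%) fell against fetal HSC.

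Lists of genes of blood cells differed in how many members had a region nearby. Of the 25124 genes of the table, 19.4% had one. The share was 48.6% of lymphoid and myeloid transcription factors (18 of 37, with 39 regions), 54.5% of homing and adhesion receptors (12 of 22), 54.5% of myeloid effector genes (18 of 33), 55.0% of NF-kappaB and inflammatory genes (11 of 20) and 44.8% of cytokine receptors (13 of 29). It was 35% of stem cell genes (7 of 20), 31.6% of antigen receptor recombination and pre-B genes (6 of 19), 30.8% of erythroid and megakaryocyte genes (8 of 26), 24.4% of interferon response genes (10 of 41), 16.7% of antigen presentation genes (4 of 24) and 15.4% of fetal regulators (2 of 13). Genes with many open regions of any kind have more chances to hold one of these, which was not tested.

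Lymphoid genes near the regions were far higher in adult LMPP than in adult HSC. Il7r encodes the receptor of interleukin 7, on which early lymphocytes depend, and had 3 regions at 3.83, 42.1 and 45.0 kb upstream. It had 19.4, 15.3 and 15.5 CPM in adult LMPP, against 21.1, 54.8 and 37.1 CPM in fetal LMPP. All 3 adult HSC libraries were at 0, so the level in adult LMPP was at least 207-fold higher, at a floor of 3 counts per library (edgeR adjusted p = 0.00016). Against fetal LMPP the difference was −1.17 ± 0.50 with an adjusted p of 0.15. Rag2 had 51.8, 39.5 and 65.6 CPM in adult LMPP, against 46.6, 59.1 and 47.7 CPM in fetal LMPP. In adult HSC it had 0.38, 0 and 0.0166 CPM, and the groups of LMPP and HSC did not overlap (log2 difference 8.79 ± 0.85, edgeR adjusted p = 0.00018). These were the 2 called genes among the 6 members of the recombination list near a region, both higher than in adult HSC. Over the whole list 7 of 19 rose against adult HSC, against 7.76% of all tested genes.

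Among the 18 transcription factors near a region, 6 rose and 2 fell against adult HSC, with a median log2 difference of 1.04, against −0.05 over all tested genes. Over the whole list 12 of 34 tested members rose and 2 fell, so the members near a region did not stand out from it. Of all tested genes 7.76% rose and 9.33% fell. Satb1, a chromatin organiser of lymphocytes, had 1 region, 72.3 kb from its start (signal 3.78). It rose to 266, 318 and 234 CPM in adult LMPP, against 4.88, 6.12 and 2.29 CPM in adult HSC (log2 difference 5.96 ± 0.36, edgeR adjusted p = 7.6e-06). Irf8, a factor of monocytes, dendritic cells and B lymphocytes with a region 56.6 kb away, averaged 191 ± 17.6 CPM in adult LMPP and 8.51 ± 4.73 CPM in adult HSC (log2 difference 4.48 ± 0.48, edgeR adjusted p = 0.0002; SD, n = 3 each). Cebpa, the factor that starts granulocyte and monocyte development, had 16.3, 22.9 and 4.58 CPM in adult LMPP, against 0.634, 0.748 and 0.183 CPM in adult HSC (log2 difference 4.84 ± 0.82, edgeR adjusted p = 0.0029). Gata3, a factor of T lymphocytes that stem cells also express, fell in adult LMPP, with 4.3, 8.54 and 6.88 CPM, against 27.8, 32.1 and 26.7 CPM in adult HSC (log2 difference −2.13 ± 0.28, edgeR adjusted p = 0.00071). Satb1, Irf8, Cebpa and Gata3 averaged 218, 132, 7.65 and 6.94 CPM in fetal LMPP, with no call against adult LMPP. Against fetal LMPP 1 of the 18 rose and 1 fell, and over the whole list 3 of 34 rose and 5 fell. Of all tested genes 8.29% rose and 7.08% fell in that comparison. Lmo2, an adaptor of blood transcription factor complexes, rose to 776, 785 and 813 CPM in adult LMPP, against 389, 307 and 285 CPM in fetal LMPP (log2 difference 1.28 ± 0.14, edgeR adjusted p = 0.00039). Nfil3, which innate lymphocytes need, fell to 17.5, 17.0 and 15.1 CPM in adult LMPP, against 51.4, 73.7 and 66.3 CPM in fetal LMPP (log2 difference −1.95 ± 0.28, edgeR adjusted p = 0.0013).

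Myeloid effector genes near the regions rose against adult HSC in 7 of 18 cases, with 11 not passing the test and a median log2 difference of 1.84, against −0.05 over all tested genes. Over the whole list 12 of 33 rose, a similar share, against 7.76% of all tested genes. Ncf1, a subunit of the oxidase that makes reactive oxygen in phagocytes, had 155, 133 and 128 CPM in adult LMPP, against 5.14, 6.48 and 5.91 CPM in adult HSC (log2 difference 4.57 ± 0.21, edgeR adjusted p = 2e-06). Its level in fetal LMPP, 113, 163 and 165 CPM, overlapped that in adult LMPP. Cd33, a lectin of early myeloid cells, averaged 30.8 ± 9.58 CPM in adult LMPP and 0.127 ± 0.221 CPM in adult HSC (SD, n = 3 each). In fetal LMPP Cd33 averaged 41.7 CPM, with no call against adult LMPP. Against fetal LMPP 4 of the 18 rose (Fcgr2b, Cd300a, Hk3 and Ctss) and 1 fell, and over the whole list 8 of 33 rose and 4 fell. Of all tested genes 8.29% rose and 7.08% fell. Fcgr2b lost the call without adult LMPP 1 or any 1 fetal LMPP library (edgeR adjusted p 0.061 to 0.1). Ctss lost it without adult LMPP 2 or 3, fetal LMPP 1 or 2, or adult HSC 2 (0.051 to 0.11), and without the 3 libraries that stand apart (0.058). Hk3, a hexokinase of myeloid cells with a region 1.14 kb inside the gene, had 113, 106 and 85.5 CPM in adult LMPP, against 1.07, 0.148 and 0.297 CPM in fetal LMPP (log2 difference 7.5 ± 0.58, edgeR adjusted p = 3.8e-05). Cd300a, an inhibitory receptor with 3 regions, 1 of them at its start, rose to 40.7, 44.7 and 54.7 CPM in adult LMPP, against 14.3, 18.3 and 15.2 CPM in fetal LMPP (log2 difference 1.55 ± 0.21, edgeR adjusted p = 0.0011). Cybb, another oxidase subunit, fell to 1.57, 1.09 and 1.41 CPM in adult LMPP, against 4.51, 14.4 and 28.1 CPM in fetal LMPP (log2 difference −3.53 ± 0.71, edgeR adjusted p = 0.0083). Summed markers of mature myeloid cells also differed: 10 macrophage genes summed to at least 35.1 CPM in every adult LMPP library, at most 20.2 CPM in fetal LMPP and 15.2 to 45.1 CPM in adult HSC. Of these 10, 1 (Marco) was at 0 in all adult LMPP libraries. The sum of 9 neutrophil genes was 2.73 to 4.51 CPM in adult LMPP and 17.3 to 39 CPM in fetal LMPP, with 2 of the 9 (Mmp9 and Retnlg) at 0 in all adult LMPP libraries. A list of 9 dendritic cell genes summed to 928 to 1090 CPM in adult LMPP, 532 to 602 CPM in fetal LMPP and 17.8 to 21.8 CPM in adult HSC. Flt3, a marker of the gates, gave 908 to 1060 CPM of this in adult LMPP and 469 to 512 CPM in fetal LMPP. The sums of both LMPP groups thus mostly follow Flt3 and say little about the other genes of that list. The part of mature myeloid cells in the myeloid genes was not tested.

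Homing receptors near the regions mostly rose against adult HSC: of 12, 8 rose and 2 fell. Over the whole list 13 of 22 rose and 4 fell, a similar share, against 7.76% and 9.33% of all tested genes. Ccr7, which guides cells to lymphoid organs, had 13.5, 16.4 and 14.4 CPM in adult LMPP, against 0, 0.0651 and 0 CPM in adult HSC (log2 difference 9.49 ± 0.71, edgeR adjusted p = 2.6e-05). In fetal LMPP Ccr7 had 19.9, 21.2 and 21.9 CPM, with no call against adult LMPP. Itgam, the CD11b chain, with 4 regions, had 27.6, 38.0 and 17.2 CPM in adult LMPP, against 4.41, 2.44 and 2.31 CPM in adult HSC (log2 difference 3.18 ± 0.39, edgeR adjusted p = 0.00045), although both gates left out CD11b+ cells. Fetal LMPP had 24.9, 33.3 and 47.2 CPM of Itgam, with no call against adult LMPP. S1pr1, which lets cells leave tissue towards blood and lymph, had 5 regions and fell against both adult HSC and fetal LMPP, with 6.57, 11.9 and 8.45 CPM in adult LMPP, 29.0, 16.4 and 22.7 CPM in fetal LMPP, and 28.5, 36.6 and 30.9 CPM in adult HSC. The log2 differences were −1.34 ± 0.27 (edgeR adjusted p = 0.0087) against fetal LMPP and −1.83 ± 0.27 (edgeR adjusted p = 0.0013) against adult HSC. Itgb2, the beta chain of leukocyte integrins, likewise fell to 31.2, 30.5 and 32.2 CPM in adult LMPP, against 96.1, 78.2 and 92.1 CPM in fetal LMPP (log2 difference −1.5 ± 0.17, edgeR adjusted p = 0.00042). Over the whole list 4 of 22 rose and 5 fell against fetal LMPP, against 8.29% and 7.08% of all tested genes. Of the 12, 2 rose (Cxcr4 and Itgb7) and 3 fell against fetal LMPP. Both rises lost the call without adult LMPP 1 (edgeR adjusted p = 0.1 and 0.056) and without fetal LMPP 1 (0.08 and 0.054).

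Most genes of antigen presentation and of the interferon response rose in adult LMPP against fetal LMPP. Over the whole lists, 23 of 24 antigen presentation genes and 29 of 41 interferon genes rose against fetal LMPP, against 8.29% of all tested genes. Most did not rise against adult HSC. In that comparison 6 antigen presentation genes rose and 3 fell, and 3 interferon genes rose and 7 fell. Near the regions 3 of 4 and 5 of 10 rose against fetal LMPP, shares no higher than those of the whole lists. Of those 5, Gbp8 and Usp18 lost the call without adult LMPP 3 or any 1 fetal LMPP library (edgeR adjusted p 0.055 to 0.074). H2-Ob, a chain of the class II regulator H2-O, had 137, 150 and 204 CPM in adult LMPP, against 15.9, 8.35 and 12.0 CPM in fetal LMPP (log2 difference 3.76 ± 0.30, edgeR adjusted p = 4.3e-05). It also rose against adult HSC, where it had 10.3, 15 and 16.2 CPM (log2 difference 3.56 ± 0.30, edgeR adjusted p = 4.6e-05). B2m, the light chain of class I molecules, averaged 2640 CPM in adult LMPP and 561 CPM in fetal LMPP (log2 difference 2.24 ± 0.17, edgeR adjusted p = 3.7e-05). In adult HSC it averaged 2270 CPM (log2 difference 0.22 ± 0.16, edgeR adjusted p = 0.43). Gbp6, a GTPase induced by interferon with a region 0.128 kb upstream, had 20.8, 43.6 and 111 CPM in adult LMPP, against 0.782, 0.037 and 0.255 CPM in fetal LMPP (log2 difference 7.15 ± 0.88, edgeR adjusted p = 0.00065). In adult HSC it had 46.9, 91.4 and 102 CPM (log2 difference −0.45 ± 0.64, edgeR adjusted p = 0.72). The Gbp genes of chromosome 5 are near-identical copies that can share reads, so their single levels are uncertain. Of the 11 NF-kappaB genes near a region 4 rose against fetal LMPP (Nfkbia, Ccl3, Traf1 and Nfkb1), and without fetal LMPP 2 the last 3 lost the call (edgeR adjusted p = 0.11, 0.079 and 0.061). Over the whole NF-kappaB list 7 of 20 rose, a similar share, against 8.29% of all tested genes. Nfkbia, the inhibitor that NF-kappaB itself induces, had 85.1, 82.4 and 117 CPM in adult LMPP, against 37.9, 35.7 and 36.2 CPM in fetal LMPP (log2 difference 1.37 ± 0.17, edgeR adjusted p = 0.0007). Over the whole cytokine receptor list 7 of 29 rose and 2 fell against fetal LMPP, and of the 13 near a region 2 rose. One was Crlf2, a chain of the receptor of thymic stromal lymphopoietin, with 34.5, 31.9 and 23.7 CPM in adult LMPP, against 8.45, 9.83 and 14.4 CPM in fetal LMPP (log2 difference 1.46 ± 0.25, edgeR adjusted p = 0.0038).

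Regions unique to adult LMPP also lay near genes that adult LMPP had turned down. All 8 erythroid and megakaryocyte genes near a region fell against adult HSC by edgeR (median −3.58), as did 21 of the 26 of the list, and 6 of 7 stem cell genes near a region fell (median −2.59), as did 15 of 20. Of all tested genes 9.33% fell against adult HSC, and 8.29% rose and 7.08% fell against fetal LMPP. Against fetal LMPP 1 of those 8 fell (Pf4, a call lost without adult LMPP 1, adult LMPP 3 or fetal LMPP 1, at edgeR adjusted p = 0.068, 0.057 and 0.058), and of those 7, 1 rose and 2 fell. Itga2b, the CD41 integrin chain of platelets, had 14.8, 13.5 and 3.67 CPM in adult LMPP, against 764, 336 and 321 CPM in adult HSC (log2 difference −5.48 ± 0.74, edgeR adjusted p = 0.00079). Pf4, a platelet chemokine with a region 1.64 kb from its start, had 0.91, 1.34 and 0.851 CPM in adult LMPP, against 536, 155 and 161 CPM in adult HSC (log2 difference −8.08 ± 0.92, edgeR adjusted p = 0.00027). Slamf1 had a region over its start (chr1:171766951-171767228, signal 3.69), and its RNA was at 0, 0.953 and 0.491 CPM in adult LMPP, against 69.7, 74.0 and 69.0 CPM in adult HSC (log2 difference −7.07 ± 1.1, edgeR adjusted p = 0.0016). Slamf1 is a gate marker, so its direction follows from the sort. Cdkn1c, an inhibitor of the cell cycle that keeps stem cells quiescent, had regions 46.6 to 63.8 kb from its start. It fell to 5.31, 4.9 and 4.39 CPM in adult LMPP, against 43.5, 18.8 and 32.3 CPM in fetal LMPP (log2 difference −2.7 ± 0.34, edgeR adjusted p = 0.00068) and 58.9, 55.8 and 101 CPM in adult HSC (log2 difference −3.89 ± 0.35, edgeR adjusted p = 7.3e-05). Angpt1, a ligand of the Tie2 receptor, with a region 0.581 kb upstream, rose against fetal LMPP and fell against adult HSC: it had 240, 200 and 174 CPM in adult LMPP, 106, 71.1 and 88.8 CPM in fetal LMPP, and 648, 650 and 434 CPM in adult HSC. Of the 2 fetal regulators with a region, Dlk1 fell to 0.152, 1.01 and 0.655 CPM in adult LMPP, against 68.6, 56.7 and 60.6 CPM in fetal LMPP (log2 difference −6.59 ± 0.47, edgeR adjusted p = 2.5e-05).

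**Figure D5:**
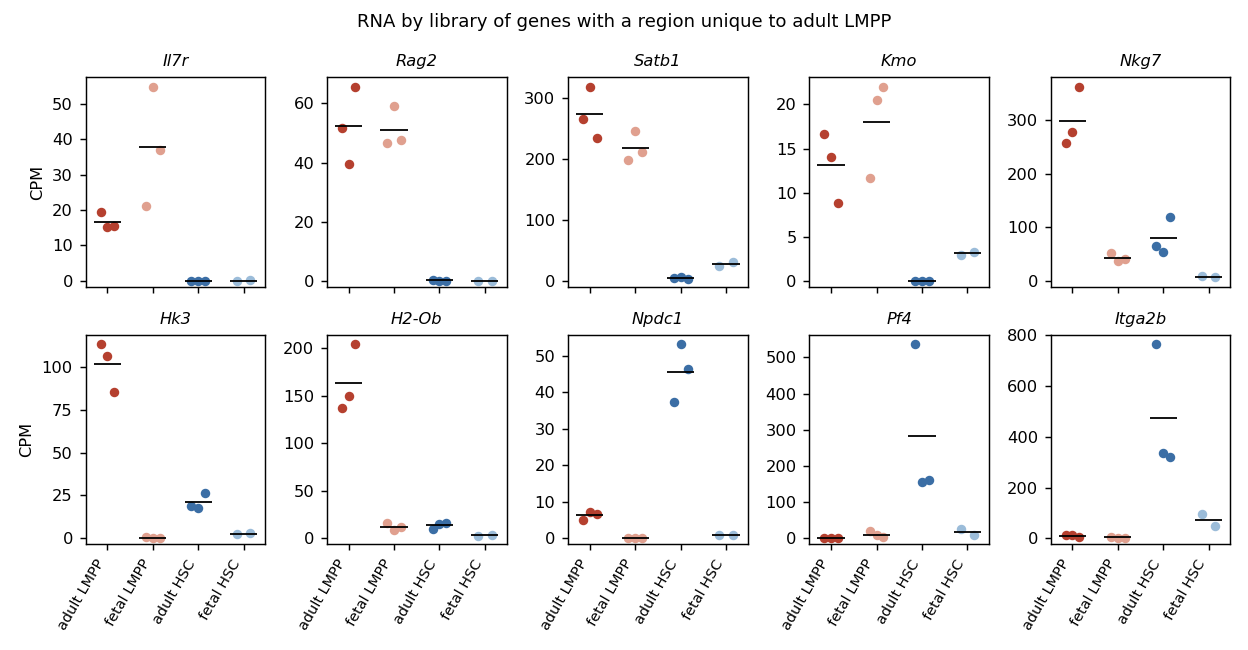
RNA level (y axis, CPM, linear) of 10 genes with a region unique to adult LMPP, by population (x axis). Points are libraries and black lines are group means; Hk3 reaches 113 CPM in adult LMPP and stays at or under 1.07 CPM in fetal LMPP, while Itga2b reaches 764 CPM in adult HSC.

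The rises of largest fitted log2 value against fetal LMPP among genes with a region were those of Bpifc, Lypd6b, Npdc1, Hk3, Gbp6, Gbp10, Esr1 and Cngb1. Bpifc, Lypd6b and Npdc1 were at 0 in all 3 fetal LMPP libraries and so at least 170-fold, 65.0-fold and 64.5-fold higher in adult LMPP. Esr1, the estrogen receptor alpha, had 28.9, 43.4 and 28.2 CPM in adult LMPP, against 0.48, 0 and 0.595 CPM in fetal LMPP (log2 difference 6.51 ± 0.76, edgeR adjusted p = 0.00049). Its level in adult HSC was 16.9, 21.7 and 10.8 CPM. The falls of largest fitted value included Fscn1, an actin bundling protein with a region 0.652 kb inside the gene. It had 0.455, 1.32 and 0.0327 CPM in adult LMPP, against 30.8, 96.9 and 89.4 CPM in fetal LMPP (log2 difference −6.85 ± 1.03, edgeR adjusted p = 0.0019). Hes1, a target of Notch signalling with a region 80.2 kb from its start, fell to 0.101, 0.252 and 0.491 CPM in adult LMPP, against 6.64, 5.54 and 9.52 CPM in fetal LMPP (log2 difference −4.62 ± 0.60, edgeR adjusted p = 0.00089).

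The rises of largest fitted log2 value against adult HSC, an order that depends on the prior count, were those of Kcng1, Il7r, Kmo, Icos, Cd6, Postn, Klhl30 and Tnfsf8, all at 0 in the 3 adult HSC libraries and at least 322-fold, 207-fold, 162-fold, 113-fold, 85.9-fold, 76.1-fold, 71.2-fold and 62.4-fold higher in adult LMPP. Kmo, whose promoter region is shown above, had 16.6, 14.1 and 8.78 CPM in adult LMPP, against 11.7, 20.5 and 22.0 CPM in fetal LMPP, and 2.91 and 3.32 CPM in fetal HSC. Icos, a costimulatory receptor of T lymphocytes with a region 0.044 kb upstream of its start, had 11.6, 6.19 and 9.66 CPM in adult LMPP, against 11.8, 11.5 and 12.4 CPM in fetal LMPP. Cd6, another receptor of T lymphocytes with a region over its start, had 10.1, 4.62 and 6.16 CPM in adult LMPP, against 4.26, 1.74 and 2.51 CPM in fetal LMPP (log2 difference 1.28 ± 0.56, edgeR adjusted p = 0.16). The falls of largest fitted value were those of Efna1, Podxl, Ocln and Runx1t1, all at 0 in adult LMPP and at least 212-fold, 141-fold, 124-fold and 80.6-fold lower than in adult HSC.

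Of the genes shown for their promoters, Nkg7, Btla and Ccl3 had all 3 libraries of adult LMPP above every library of the other groups. Nkg7 had 257, 278 and 363 CPM in adult LMPP, against 52.2, 37.4 and 40.6 CPM in fetal LMPP (log2 difference 2.78 ± 0.30, edgeR adjusted p = 0.00033) and 65.3, 53.7 and 119 CPM in adult HSC (log2 difference 1.91 ± 0.29, edgeR adjusted p = 0.0015). Nkg7 belongs to a list of T and NK cell markers, which summed to 261 to 367 CPM in adult LMPP and 49.4 to 61.8 CPM in fetal LMPP. Nkg7 alone gave 257 to 363 CPM and 37.4 to 52.2 CPM of these, so the sums mostly repeat its own level. Of the 8 genes of the list in the count table, 2 (Cd3e and Ncr1) were at 0 in all adult LMPP libraries and the others were not. The part of such cells in the level of Nkg7 was not tested. Btla had 35.5, 31.5 and 37.0 CPM in adult LMPP, against 12.3, 9.02 and 11.6 CPM in fetal LMPP (log2 difference 1.66 ± 0.54, edgeR adjusted p = 0.065) and 0, 0.163 and 0 CPM in adult HSC (log2 difference 9.51 ± 0.84, edgeR adjusted p = 0.0001). The difference of Btla between adult and fetal LMPP did not pass the test. Ccl3 had 11.6, 13.8 and 19.3 CPM in adult LMPP, against 3.39, 6.58 and 8.67 CPM in fetal LMPP (log2 difference 1.27 ± 0.37, edgeR adjusted p = 0.045) and 0.571, 0.748 and 0.88 CPM in adult HSC (log2 difference 4.33 ± 0.43, edgeR adjusted p = 0.00012). The call of Ccl3 against fetal LMPP was lost whichever library of adult LMPP, fetal LMPP 1 or 2, or any single HSC library other than adult HSC 3 was left out (edgeR adjusted p 0.055 to 0.13). Cx3cr1 had 3.84, 6.19 and 2.42 CPM in adult LMPP, against 4.14, 12.5 and 10.2 CPM in fetal LMPP (log2 difference −1.11 ± 0.80, edgeR adjusted p = 0.4), and 0, 0.423 and 0.598 CPM in adult HSC (log2 difference 3.55 ± 0.90, edgeR adjusted p = 0.022). That last call was lost without adult LMPP 2 (0.062) or adult HSC 2 (0.065).

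The difference between adult and fetal cells was also compared between LMPP and HSC. Among the 3344 genes near a region, the adult minus fetal difference was more positive in LMPP than in HSC for 34 genes (1.02%) and more negative for 16 (0.478%). Of all tested genes the shares were 0.543% and 0.387%. The sign does not say in which cell type the change with age was larger. Without fetal HSC 2 the counts were 9 and 4 (12 and 4 without fetal HSC 1, 13 and 8 without adult LMPP 1). Without any other single library they were 22 to 40 and 13 to 23. They were 152 and 93 without the 3 libraries that stand apart and 133 and 86 with DESeq2.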

How the data were processed

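The 4 ATAC-seq lists hold reproducible peaks, 1 list per population made from its 2 replicate libraries, in mm10. Whether reads of replicates were pooled is not stated. The peak score, signal value and −log10 q value are the authors' own as deposited, and served only to describe or rank peaks within a list. Lines with the same coordinates (several summits of 1 peak) were counted once. RNA values are the authors' deposited expected counts over exons, made with HOMER on mm10 per the file headers. They move in steps of 0.5 (22.5% not whole) and were rounded. The submitters' processing notes name MACS2, SAMtools 1.9, Picard, Bowtie2 2.3.5, STAR, RSEM, HOMER, Trim Galore and DESeq2, without roles.

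Counts were fitted with edgeR 4.0.16 in R 4.3.3 (filterByExpr, TMM, quasi-likelihood means model over all 11 libraries, Benjamini-Hochberg adjusted p under 0.05, common biological coefficient of variation 0.372, prior degrees of freedom 3.46). DESeq2 1.42.0, other filters, a replicate block, omission of libraries and other region-to-gene links were alternatives. The fit was tested on simulated data. A region was linked to the gene with the nearest start within 100 kb of its centre, from the transcript positions in the count table. Same-numbered adult LMPP and adult HSC libraries deviated together (r = 0.126, 0.263 and 0.407), which met a rule of r above 0.1 in every pair. The value of 0.407 comes from libraries that stand apart. Adult HSC 1 with adult LMPP 2 had a value of 0.174, above that of its same-numbered pair, so whether the numbers mark pairs is not known. The main fit held no block, and the block was used only as an alternative. Same-numbered adult and fetal LMPP libraries did not deviate together (−0.11, 0.056 and −0.128).

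Genes named were the 10 with most regions, those of the 10 strongest regions, up to 4 called members with the lowest p of each of 11 lists per comparison, and the 8 rises and 4 falls of largest fitted log2 value whose higher group averaged 5 CPM or more and whose libraries did not overlap, without predicted, clone or Riken genes. The regions and lists were chosen with earlier results of these data known. Folds against a group at 0 use a floor of 3 counts per library (0.0498 to 0.152 CPM), which covers counting error only. For these genes the size of a fitted log2 value moves with the prior count. The libraries carry no molecular identifiers in their protocol and keep no strand, so overlapping and antisense genes cannot be told apart. 0 columns of the tables belonged to other libraries.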

Additional observations from a re-analysis of the deposited data

Results flagged for a closer look

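For 11 of the genes named, the adult minus fetal difference was not the same in LMPP and in HSC, by edgeR's test of the difference itself. Many named genes were picked by calls or size of change in adult against fetal LMPP or adult LMPP against adult HSC. Both contrasts enter this test, so calls among the named genes were favoured and their number is no result. Of all tested genes 0.543% were more positive in LMPP and 0.387% more negative. The values are log2 differences in LMPP minus those in HSC. Their sign does not say in which cell type the change with age was larger. It was more positive in LMPP for Postn (10.83 ± 0.69 SE, edgeR adjusted p = 0.00076), Kmo (9.3 ± 0.87, 0.003), Cd6 (8.51 ± 1.24, 0.021) and Icos (8.11 ± 0.86, 0.0064). All of these were at 0 in adult HSC and detected in fetal HSC, so their sizes depend on the prior count. For them the change with age was larger in HSC, with adult minus fetal at −12.67 (Postn), −9.76 (Kmo), −7.23 (Cd6) and −8.49 (Icos). In LMPP it was −1.84, −0.46, 1.28 and −0.38. It was also more positive in LMPP for Npdc1 (5.19 ± 0.79, 0.025), which was at 0 in fetal LMPP, Hk3 (4.52 ± 0.69, 0.016), Itgam (3.11 ± 0.54, 0.026) and Satb1 (2.96 ± 0.44, 0.014). Npdc1 differed by 10.77 between adult and fetal LMPP and by 5.58 between adult and fetal HSC, and Hk3 by 7.5 and 2.97. Satb1 differed by 0.32 between adult and fetal LMPP and by −2.64 between adult and fetal HSC, and Itgam by −0.34 and −3.45. The difference was more negative in LMPP for Pf4 (−7.3 ± 1.19, 0.019), Hes1 (−5.33 ± 0.85, 0.017) and Cd9 (−1.87 ± 0.32, 0.026). Hes1 differed by −4.62 in LMPP and by 0.71 in HSC, and Cd9 by −0.01 and 1.86. Pf4 was lower in adult than in fetal LMPP (−3.3) and higher in adult than in fetal HSC (4.0). The calls of 8 of the 11 were lost without fetal HSC 2 (edgeR adjusted p 0.099 to 0.18), which leaves 1 fetal HSC library that is assumed to vary like the other groups, and those of Kmo, Icos and Postn were kept whichever single library was left out. Other single libraries whose omission ended a call were fetal HSC 1 (Itgam, Hk3, Pf4, Cd9, Npdc1 and Hes1, 0.056 to 0.14), adult LMPP 1 (Itgam, Hk3, Pf4, Cd9 and Cd6, 0.052 to 0.073), adult LMPP 2 (Itgam and Cd9, 0.056 and 0.057), adult HSC 1 (Cd9 and Npdc1, 0.066 and 0.051), adult HSC 2 (Itgam, 0.069), fetal LMPP 1 (Itgam and Npdc1, 0.052 and 0.069), fetal LMPP 2 (Itgam and Cd9, 0.071 and 0.056) and fetal LMPP 3 (Cd6, 0.055). With the replicate block Itgam (0.096) and Cd6 (0.073) lost the call, and without the 3 libraries that stand apart Npdc1 did (0.08).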

How the results depend on the processing

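The number of regions was 8186 when a peak had to overlap by 0.5 of its length and 7333 when peaks within 500 bp were merged. It fell to 1236 with only adult LMPP peaks above the median signal and to 4445 with lists of equal length, both smaller by construction. Counts of genes near the regions are given below as higher, then lower, in adult LMPP. Without the 3 libraries that stand apart they were 676 and 456 against fetal LMPP, 578 and 592 against adult HSC, 622 and 539 against fetal HSC, and 152 and 93 for the difference between LMPP and HSC. DESeq2 gave 325 lower against fetal LMPP, and 133 and 86 for the difference. With the replicate block the difference had 19 higher. The fit of the adult libraries alone with the block, chosen after seeing the data, gave 608 and 585 against adult HSC. Linking any start within 50 kb, which takes in more genes, gave 580 and 384, 563 and 541, and 453 lower against fetal HSC. The nearest start within 20 kb, which takes in fewer, gave 130, 214 and 166 lower in the 3 comparisons. Leaving out 1 library at a time gave 255 to 484 higher and 125 to 322 lower against fetal LMPP, 235 to 429 and 211 to 402 against adult HSC, 167 to 444 and 120 to 377 against fetal HSC, and 9 to 40 and 4 to 23 for the difference. The lowest counts came without adult LMPP 1 against adult HSC (both directions) and fetal LMPP (lower), without fetal LMPP 2 against fetal LMPP (higher), without fetal HSC 2 against fetal HSC (both) and for the difference without fetal HSC 2 (higher) and without either fetal HSC library (lower). Where not named above, the cause was not tested. Of the named genes called against fetal LMPP, 33 of 46 kept the call whichever single library was left out, as did 50 of 61 against adult HSC and 37 of 63 against fetal HSC. No named gene that was called changed sign under any alternative run. Depth limits genes at or near 0 in a group, whose size of change is a bound.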
